A study of Mus musculus with 4 samples.

Results

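The genes described here are 4 chemokines of type 2 immune responses, Ccl11, Ccl24, Ccl17 and Ccl22, and the receptors Ccr4 and Ccr8. They were read on 4 one-color arrays of BALF cells, the cells that come out of the lung with bronchoalveolar lavage fluid. The members were found as the non-control probes whose accession belongs to one of these symbols, which gave 6 of the 20832 genes that could be named on the array and 7 of its 39429 probes. The genes were chosen with the differences between these same arrays known, so their differences between genotypes are given as a description and were not tested.

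There were 2 arrays of bleomycin-administered wild-type mice and 2 of bleomycin-administered S1pr2-/- mice, which carry a targeted disruption of the sphingosine-1-phosphate receptor gene S1pr2 in every cell. Both groups received intraperitoneal bleomycin, a drug that injures the lung and leads to fibrosis, at 0.035 U/g given 2 times a week, and the sample records place the collection of cells at day 22. The mice were 8 to 10 weeks old, of a mixed 129Ola;C57BL/6J background, and the wild-type mice were littermates from heterozygous breeding. The records name the cells alveolar macrophages, but the RNA was made from unsorted BALF cells, and whether an array holds 1 mouse or a pool is not given in the sources used here. No saline-administered mice were measured on these arrays, so the levels without bleomycin are not known here.

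As background, CCL11 and CCL24 are eotaxins, which draw eosinophils through the receptor CCR3. CCL17 and CCL22 are made mainly by macrophages and dendritic cells and draw T helper 2 cells and regulatory T cells through CCR4, and CCR8 is carried by subsets of the same T cells. IL-4 and IL-13, the leading type 2 cytokines, act through the transcription factor STAT6 and are known to induce Ccl11, Ccl17, Ccl22 and Ccl24.

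Promoter sequences are shown for the CCR4 ligands Ccl17 and Ccl22, because both genes encode ligands of one receptor and lie near each other on mouse chromosome 8. The sequences are from RefSeq on the build GRCm38.p6. The set of promoter windows used here held an entry for 4 of the 6 genes (Ccl17, Ccl22, Ccr4 and Ccr8) and none for Ccl11 and Ccl24. Each is the 250 bases before the gene's start on the plus strand, chr8:94810203-94810452 for Ccl17 and chr8:94745434-94745683 for Ccl22, and capitals mark matches to the STAT6 motif (TTC and GAA with 4 bases of any kind between them) or to the shorter STAT motif (the same with 3 bases between them).
Ccl17: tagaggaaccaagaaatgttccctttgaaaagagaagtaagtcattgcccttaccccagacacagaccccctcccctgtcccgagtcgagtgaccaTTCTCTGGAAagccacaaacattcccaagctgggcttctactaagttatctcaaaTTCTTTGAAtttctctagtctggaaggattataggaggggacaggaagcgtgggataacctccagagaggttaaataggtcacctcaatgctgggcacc
Ccl22: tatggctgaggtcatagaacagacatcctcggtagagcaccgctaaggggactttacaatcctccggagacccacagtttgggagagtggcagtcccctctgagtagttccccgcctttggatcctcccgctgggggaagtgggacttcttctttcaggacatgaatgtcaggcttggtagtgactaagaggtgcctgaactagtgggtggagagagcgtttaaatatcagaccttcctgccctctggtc

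In the Ccl17 window the STAT6 motif lay 154 to 145 bases before the start and the shorter STAT motif 99 to 91 bases before it. Both motifs read the same letters on either strand, and the windows of Ccl22, Ccr4 and Ccr8 held neither. The search covered RefSeq's whole window, from 250 bases before to 50 after the start, and over 32851 such windows 6.95% held the STAT6 motif and 8.3% the shorter one. The GATA motif AGATAA, searched on both strands because GATA3 is the factor of T helper 2 cells, was found in 11.2% of windows, among them those of Ccl17, 109 to 104 bases before the start, and Ccr8, 239 to 234 bases before it. These matches describe letters in a window and say nothing of binding in these cells.

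The disrupted gene itself was read before the members. Its probe, S1pr2, had a signal of 0.915 and 0.896 relative to the array's 75th percentile in the wild-type group and of 6.35 and 5.83 in the group labelled S1pr2-/-. It was 6.72-fold higher in the latter (a log2 difference of 2.75, standard error 0.0724), which goes against the label. Where this probe lies relative to the disrupted part of the gene is not known here. Each direction given below follows the labels, with the arrays labelled S1pr2-/- called knockout-labelled. The paper's quantitative PCR of BALF cells, which set bleomycin against saline at several days, found the bleomycin-induced increases of Ccl17, Ccl24, Il4 and Il13 reduced or abolished by S1pr2 deletion. It reported no effect of the deletion on IL-13 protein in BALF. For these mRNAs the labels give the same direction here, without saline arrays, and an exchange of labels was not tested. The arrays were otherwise alike in brightness, with 75th percentiles between 2489 and 2817 intensity units, and all 4 were on 1 slide with 1 scan. The alveolar macrophage markers Marco, Car4, Fabp4, Krt79, Plet1 and Ear2 were well above background on all 4 arrays, with a summed signal of 463 to 496 times the 75th percentile on the wild-type arrays and 439 to 469 times on the others. Ear2 and Marco made up most of this sum, and single markers were less even. The log2 differences were 0.58 for Fabp4, -0.28 for Car4 and -0.45 for Krt79, and lay between -0.12 and -0.01 for Marco, Plet1 and Ear2. Krt79 read 25.5 times on knockout-labelled replicate 1 beside 47.7 to 52.8 times on the other arrays.

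Of the 7 member probes, 5 were well above background on all 4 arrays, meaning that the scanner software marked the spot as clearly brighter than its surroundings. These were the probes of Ccl24, Ccl17, Ccl22, Ccr4 and Ccr8. The Ccl11 probe did not stand well above background on any of the 4. A dimmer Ccr8 probe was well above background only on wild-type replicate 2. Among the 5 genes measured, Ccl24, Ccl17, Ccl22 and Ccr4 had lower values on both knockout-labelled arrays than on either wild-type array (4 genes), and the values of Ccr8 overlapped. Over the whole array 21.8% of the 27158 probes tested were placed like the former, and 20.0% had both knockout-labelled values above the wild-type ones. Differences past 2-fold were seen for 3 members (Ccl24, Ccl17 and Ccr4), all lower, beside 1.24% of all tested probes lower and 0.180% higher. Since this contrast chose the genes, nothing is read from these counts.

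**Figure D1:**
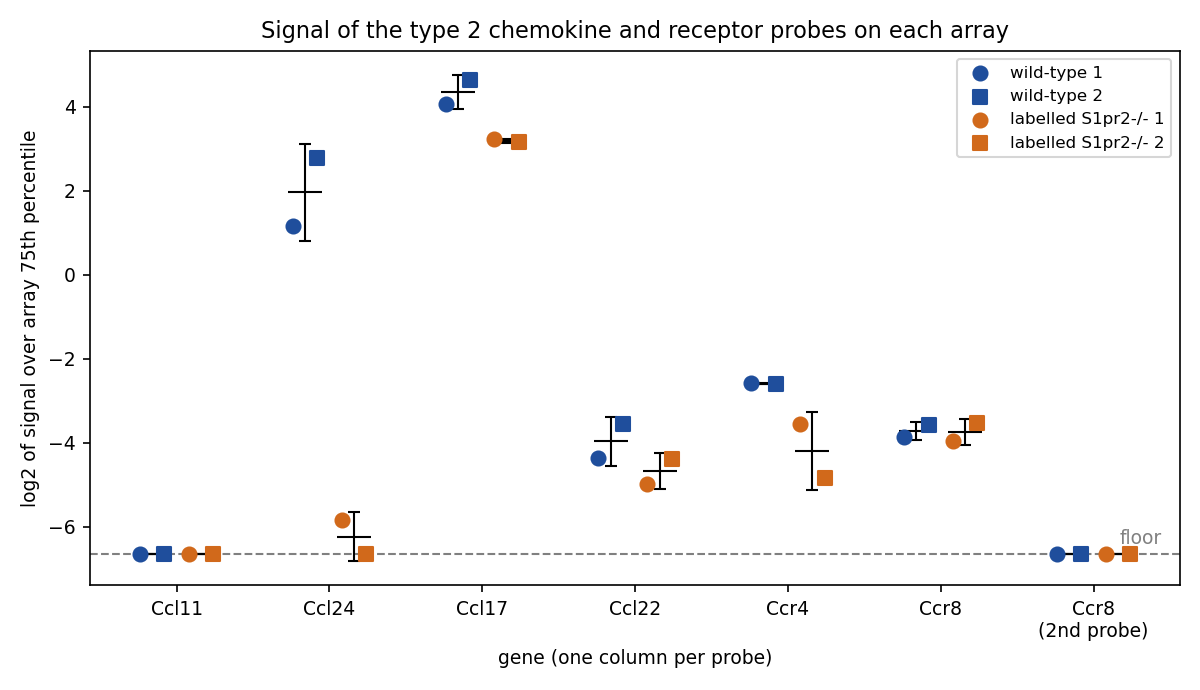
Each point is 1 array, given as log2 of the probe's signal over that array's 75th percentile, with the mean and SD of the 2 arrays of a genotype as black lines and the floor of 0.01 as a dashed line. Ccl24 lies between 1.15 and 2.78 on the wild-type arrays and at -5.83 or the floor on the knockout-labelled arrays, while Ccr8 overlaps between genotypes.

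Ccl24, the eotaxin with a measured signal, had the widest difference of the members. Its signal was 2.22 times the 75th percentile on wild-type replicate 1 and 6.88 times on wild-type replicate 2. It was 0.0176 times on knockout-labelled replicate 1 and 0.00973 times on knockout-labelled replicate 2. The wild-type arrays were thus 3.1-fold apart, and the lower of them was still 126-fold above the higher knockout-labelled array. In intensity units the spot read 5660 and 17117 against 49.7 and 25, and on the latter arrays its median pixel, at 111 and 83, stood above a local background of 34 and 31.5.

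The log2 value of Ccl24 was 1.96 ± 1.16 (SD, n = 2) for the wild-type mice and -6.23 ± 0.58 (SD, n = 2) on the knockout-labelled arrays. The difference was -8.20 with a standard error of 0.716 from the limma model over all probes, the lowest of the 27158 probes tested. In absolute size it was also the largest, so this rank does not depend on the labels. With 1 array at the floor of 0.01 the signal was 294-fold lower, and without the floor 298-fold lower. The size depended on the background correction. Under normexp, which models the background of each array, it was -6.82 when fitted on the non-control spots, a setting added after the data were seen, because the fit on all spots gave knockout-labelled replicate 1 a background of -418 intensity units beside 4.72 to 8.15 for the others. On all spots it was -5.83. It was -7.38 without wild-type replicate 2 and -9.02 without wild-type replicate 1. In these unsorted cells, fewer cells of a type and less RNA per cell cannot be told apart.

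Ccl11, the other eotaxin, gave no level that can be compared. Its signal lay between 0.00115 and 0.00186 times the 75th percentile on all 4 arrays, under the lowest signal that was well above background on any array, 0.00575 times. The raw median pixel of the spot was 49 to 53 with a local background of 27 to 29. The probe therefore gives no fold in either direction, and a difference in Ccl11 was not detectable on these arrays. Its chemokine neighbours on chromosome 11, chosen by position after the values were seen, did have signal on all 4 arrays. Their log2 differences were 0.12 for Ccl2, -0.15 for Ccl7, -0.19 for Ccl12 and -1.04 for Ccl8, with standard errors between 0.405 and 0.917.

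Ccl17, a CCR4 ligand, was bright on every array. Its signal was 16.8 and 24.9 times the 75th percentile on the wild-type arrays and 9.3 and 8.87 times on the knockout-labelled arrays. The knockout-labelled arrays were within 1.05-fold of each other, whereas the wild-type arrays were 1.48-fold apart, with wild-type replicate 2 again the higher. Over the 4 pairs of a wild-type array with an knockout-labelled array, the wild-type signal was between 1.81-fold and 2.81-fold higher. The mean log2 value was 4.35 ± 0.40 (SD, n = 2) for the wild-type mice and 3.18 ± 0.05 (SD, n = 2) on the knockout-labelled arrays. This was a difference of -1.17 (standard error 0.229), or 2.25-fold lower. Only 0.869% of the probes tested had a lower difference, and 99% had a smaller absolute difference. It stayed between -1.45 and -0.89 with 1 array left out, the latter without wild-type replicate 2.

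Ccl22, the second CCR4 ligand, was dim, and its genotypes touched. Its signal was 0.0484 and 0.0851 times the 75th percentile on the wild-type arrays and 0.0318 and 0.0481 times on the knockout-labelled arrays. Replicate 2 was the higher array in both genotypes. Wild-type replicate 1 and knockout-labelled replicate 2 both read 124 intensity units before scaling and differed by 0.01 on the log2 scale. The mean log2 value was -3.96 ± 0.58 (SD, n = 2) for the wild-type mice and -4.67 ± 0.42 (SD, n = 2) on the knockout-labelled arrays, a difference of -0.71 (standard error 0.398). It was -0.30 without wild-type replicate 2 and -1.12 without wild-type replicate 1. Under normexp it was -0.50 on the non-control spots and 0.33 on all spots, where knockout-labelled replicate 1 had the background of -418. The gap of 0.01 between the groups is small beside the spread within each. Between Ccl22 and Ccl17 on chromosome 8 lies the chemokine gene Cx3cl1, chosen by position after its value was seen, which had a log2 difference of 0.35 (standard error 0.109).

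Ccr4, the receptor of CCL17 and CCL22, was even between the wild-type arrays and uneven on the others. Its signal was 0.168 and 0.165 times the 75th percentile on the wild-type arrays. It was 0.0857 times on knockout-labelled replicate 1 and 0.0349 times on knockout-labelled replicate 2, so the latter arrays were 2.46-fold apart. Both lay below both wild-type arrays, by between 1.92-fold and 4.81-fold over the 4 pairs. The mean log2 value was -2.59 ± 0.02 (SD, n = 2) for the wild-type mice and -4.19 ± 0.92 (SD, n = 2) on the knockout-labelled arrays. This was a difference of -1.61 (standard error 0.509), or 3.04-fold lower. It was -0.96 without knockout-labelled replicate 2, -2.25 without knockout-labelled replicate 1, and under normexp -1.25 on the non-control spots and -0.75 on all spots.

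Ccr8, a receptor of T helper 2 and regulatory T cells, had on its brighter probe 0.0685 and 0.0838 times the 75th percentile in wild-type and 0.0643 and 0.0873 times on the knockout-labelled arrays. The groups overlapped, with both the lowest and the highest value on knockout-labelled arrays. The mean log2 value was -3.72 ± 0.21 (SD, n = 2) for the wild-type mice and -3.74 ± 0.31 (SD, n = 2) on the knockout-labelled arrays, a difference of -0.02 (standard error 0.213). Under normexp it was 0.02 on the non-control spots and 0.66 on all spots. The dimmer probe, which shares the accession, read at most 0.00824 times the 75th percentile on any array and adds no comparison.

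**Figure D2:**
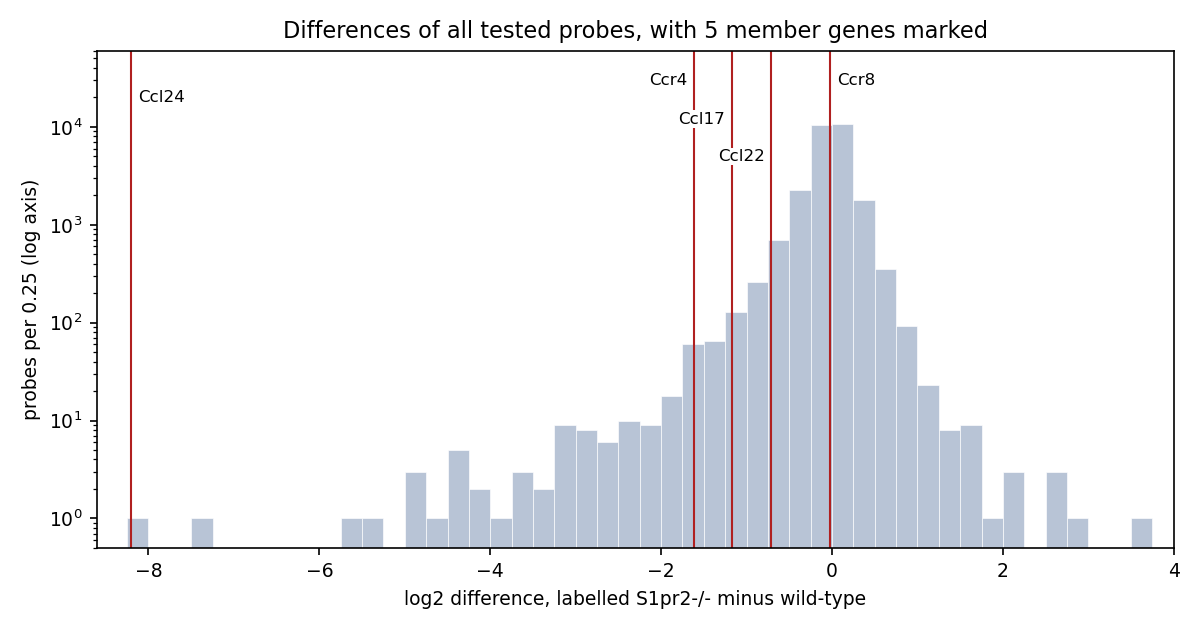
Bars count the 27158 tested probes by their log2 difference in steps of 0.25 on a log axis, and red lines mark the 5 member genes with signal. Ccl24 lies at the far left at -8.20, Ccr4, Ccl17 and Ccl22 lie in the left tail, and Ccr8 lies at the centre.

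The replicate arrays were compared with those of all tested probes. The gap between the wild-type arrays was larger for Ccl24 than for 99.2% of tested probes, for Ccl22 than for 96.6% and for Ccl17 than for 92.9%, and in all 3 wild-type replicate 2 was the higher. For Ccr4 the gap between the wild-type arrays exceeded that of 13.4% of probes. The gap between the knockout-labelled arrays was larger for Ccr4 than for 99.3% of probes, for Ccl24 than for 97.2%, for Ccl22 than for 93.8% and for Ccl17 than for 31.5%. Ccl24 and Ccl22 thus differed widely between replicates in both genotypes, Ccl17 mainly between the wild-type arrays and Ccr4 mainly between the knockout-labelled ones. For Ccr8 the gaps exceeded those of 79.6% and 88.8% of probes.

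Over the whole array, limma with Benjamini-Hochberg adjustment called 0 of 27158 probes (0% lower and 0% higher, adjusted p under 0.05). The unadjusted p was under 0.05 for 1518 lower probes (5.59%) and 1083 higher ones (3.99%), and 172 (0.633%) and 29 (0.107%) of these were also past 2-fold. The balance of directions depended on the scaling, with 1024 lower and 1750 higher by unadjusted p under quantile normalization and 1436 and 1652 with the percentile over detected probes. Only 2 probes were called in any setting, those of S1pr2 and Fbp1 under normexp on the non-control spots. The methods' t-test called 0 after the same adjustment, and 1065 lower and 995 higher before it. With 2 arrays per genotype, an exact two-sided permutation test of a single probe cannot give a p under 0.333.

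The other genes of the CCR3, CCR4 and CCR8 axis were read from a list of 10, of which 9 were tested; Ccl26 was not well above background on both arrays of a genotype. Their median log2 difference was -0.19, beside -0.003 over all tested probes, and limma called 0 of them after adjustment. Only Ccr3, the receptor of the eotaxins, had an unadjusted p under 0.05 from limma (1 gene), also with the methods' t-test. By limma, 5.59% of all tested probes had such a p on the lower side. The study listed Ccr3 as lower from these same arrays, so its p is not independent evidence of a direction. Ccr3 was at -0.41 and 1.17 on the wild-type arrays and at -4.48 and -3.69 on the knockout-labelled arrays on the log2 scale, a difference of -4.47 (standard error 0.693). Like Ccl24, it was higher on wild-type replicate 2 than on wild-type replicate 1.

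Of the remaining genes of that list, Ccl1, which encodes a CCR8 ligand, had a log2 difference of -0.58 (standard error 0.473), and Ccl8, which encodes another CCR8 ligand in the mouse, one of -1.04 (standard error 0.917), with knockout-labelled replicate 2 alone below the wild-type arrays. Ccl5 and Ccl7, whose products also bind CCR3, were at -0.28 and -0.15. Ccl28, Ackr2, a scavenger receptor of inflammatory chemokines, and Dpp4, a peptidase that trims chemokines, were at -0.19, -0.18 and -0.01. Ccl28 was at the floor on every array except wild-type replicate 1, which limits its difference and the list median that it sets. Without a floor that median was -0.28. Ackr1 was at the floor on all 4 arrays. The groups of these 8 genes overlapped.

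The upstream cytokines and the parts that carry their signal were read next. Among 10 genes of IL-4 and IL-13 receptors and signalling, limma called 0 after adjustment and 2 at an unadjusted p under 0.05 (5.59% of all tested probes on the lower side), Il4 and Il13, while the methods' t-test gave 1 before adjustment and 0 after. Il4 was at -1.42 and -0.14 on the wild-type arrays and at -4.43 and -4.26 on the knockout-labelled arrays on the log2 scale. Il13 was at -4.57 and -2.78 on the wild-type arrays and at the floor on both knockout-labelled arrays. Its probe passed the filter through the wild-type arrays only, so its unadjusted p rests on floored values and is not support for a difference. The study listed Il4 and Il13 as lower from these same arrays, so neither p is independent evidence of a direction. The receptor chain Il4ra differed by -0.28 (standard error 0.109), Il13ra1 by 0.14 (standard error 0.118), Jak1 by -0.01 and Stat6 by 0.07 (standard error 0.0991). Il13ra2, at the floor on every array except wild-type replicate 2, was at -0.41, and Tyk2 was at -0.27. Of the 10 genes, 4 were lower and 2 higher without overlap of the groups (21.8% and 20.0% of all tested probes), and the median of the list was -0.14.

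Of 12 macrophage genes known to respond to IL-4 and IL-13, 11 were tested; Clec10a was not matched to a probe. Their median log2 difference was -0.78, and 7 were lower and 1 was higher on both knockout-labelled arrays than on either wild-type array, as were 21.8% and 20.0% of all tested probes. limma called 0 after adjustment and 5, all lower, at an unadjusted p under 0.05 (5.59% of all tested probes on that side), among them Alox15 at -4.83, Retnla at -3.11, Socs1 at -1.74 and Pdcd1lg2 at -0.80; the methods' t-test gave 0 before and 0 after adjustment. In contrast, Chil3 and Mrc1, which are also widely used markers of this state, were at -0.03 (standard error 0.118) and -0.02 (standard error 0.0736). Several of these genes were listed by the study from these same arrays, so the list is not independent evidence of a direction.

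A list called type 2 inducers here, which also held the cytokines Il5 and Il9 and the receptor Ptgdr2, gave a median of -0.62 over 7 tested of 10. Tslp, Il25 and Il9 stood well above background on none of the arrays. limma called 0 after adjustment and 3 at an unadjusted p under 0.05, which 5.59% of all tested probes reached on the lower side: the alarmin Il33 at -0.62, the IL-25 receptor chain Il17rb at -0.47 and Gata3 at -0.81. The methods' t-test gave 1 before adjustment and 0 after. The receptor of IL-33, Il1rl1, was at -1.68 (standard error 0.600), and the TSLP receptor Crlf2 was at 0.02. The median of this list was -0.43 under normexp on the non-control spots and 0.24 on all spots.

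**Figure D3:**
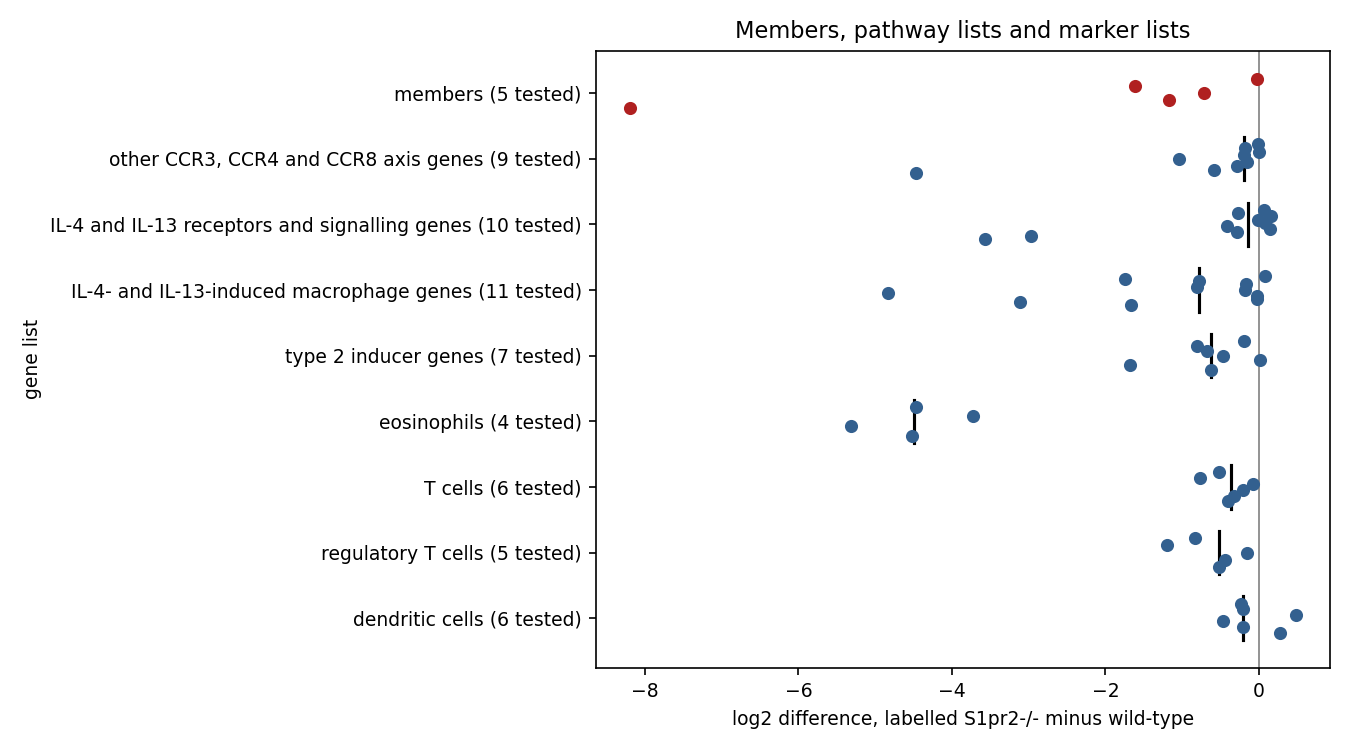
Each point is the log2 difference of 1 tested gene, by list, and black bars are list medians (none is drawn for the members). The eosinophil list lies as far left as the lowest pathway genes, with a median of -4.50, while the medians of the T cell, regulatory T cell and dendritic cell lists are -0.36, -0.52 and -0.21.

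Markers of the cells that respond to these chemokines were read beside them. The eosinophil list, which is the target population of CCL24, had 4 of 5 genes tested (Prg3 was not), and all 4 (Epx, Prg2, Il5ra and Ccr3) were lower on both knockout-labelled arrays, as were 21.8% of all tested probes. Its summed signal was 2.09 to 6.63 times the 75th percentile on the wild-type arrays and 0.123 to 0.196 times on the knockout-labelled arrays. Epx was at the floor on knockout-labelled replicate 1 and passed the filter through the wild-type arrays only. The study listed Il5ra and Ccr3 as lower from these same arrays. The part of eosinophil number in the differences of Ccl24 and Ccr3 was not tested.

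For the CCR4 and CCR8 side, the T cell markers Cd3d, Cd3e, Cd3g, Cd4, Cd5 and Lat were all well above background, with a median log2 difference of -0.36 and a range from -0.77 to -0.08. Their summed signal was 13.6 to 14.7 times the 75th percentile in wild-type and 9.51 to 13.0 times on the knockout-labelled arrays. The regulatory T cell markers Foxp3, Il2ra, Ikzf2, Ctla4 and Tnfrsf4 had a median of -0.52, from -1.20 for Ctla4 to -0.15 for Ikzf2, and a summed signal of 3.25 to 3.92 times in wild-type and 1.95 to 2.64 times on the others. The part of T cell number in the difference of Ccr4 was not tested.

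Of the cells that can make CCL17 and CCL22, the dendritic cell markers had a median of -0.21, from -0.47 for Ccr7 to 0.49 for Cd209a, and a summed signal of 10.9 to 13.6 times in wild-type and 9.39 to 9.58 times on the knockout-labelled arrays. Ccr7 made up most of that sum, at 9.61 and 12.1 times in wild-type and 7.66 and 7.92 times on the others. Flt3 and Cd209a were higher, at 0.28 and 0.49, with overlapping groups, and the remaining genes were lower. The part of dendritic cells in the difference of Ccl17 was not tested. Fibroblasts and epithelium, known sources of CCL11, gave summed signals of 0.255 to 0.26 and 28.5 to 31 times in wild-type and of 0.353 to 0.659 and 22.8 to 38.5 times on the others. The width of the epithelial range on the knockout-labelled arrays came mostly from Scgb1a1, at 11.4 and 28.2 times and a log2 difference of 0.23. Sftpc, Sftpb, Epcam and Krt18 were at -0.34, -0.46, -0.33 and -0.45. These were lower on both knockout-labelled arrays, as were 21.8% of all tested probes. Of the mast cell and basophil markers, Mcpt8, Fcer1a, Ms4a2 and Gata2 stood well above background on none of the arrays, and Cpa3 was at the floor on all 4.

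The genes most like each member were found by the Euclidean distance between log2 values centred on their mean, over the 4 arrays and 20133 named probes. For Ccl24 the nearest were Fbp1 (distance 1.32), Gata1 (2.92) and Prg2 (3.17). For Ccl17 they were Mab21l3 (0.0748), Rnase12 (0.111) and AA467197 (0.127), and for Ccl22 Ap1m2 (0.11), Tinagl1 (0.117) and Ear6 (0.117). For Ccr4 they were Ripor2 (0.285), Neb (0.375) and Mmp9 (0.411). For Ccr8 they were Arl13b (0.0237), Gzmk (0.0264) and Glce (0.036). With 4 arrays this likeness is only a description.

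**Figure D4:**
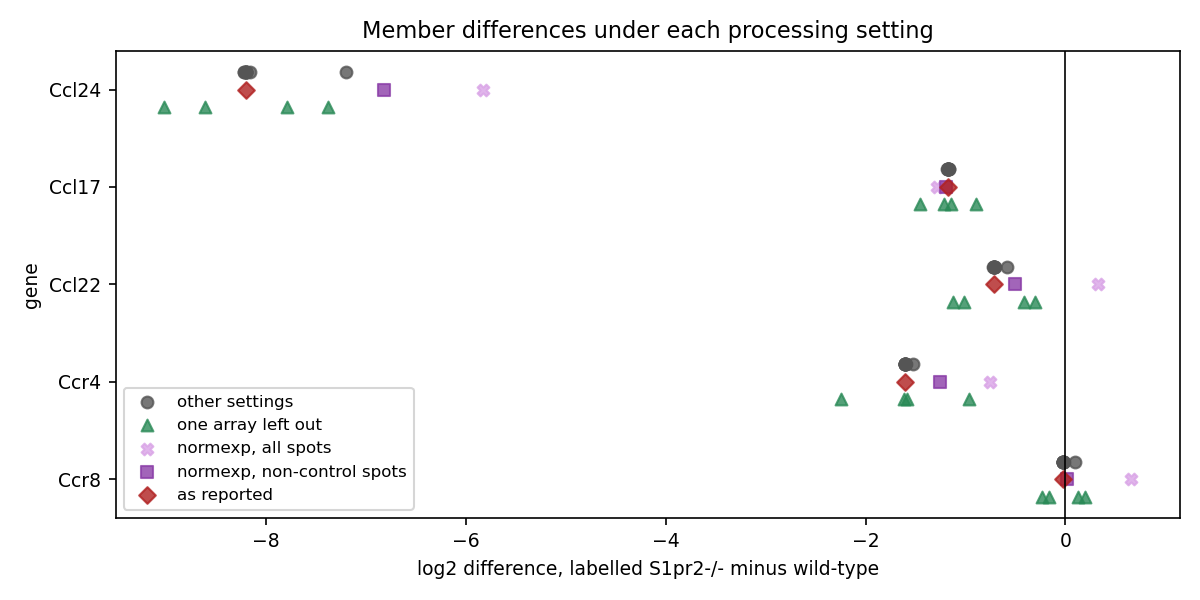
Points give the log2 difference of each member gene as reported, with each array left out, under normexp fitted on non-control or on all spots, and under the other settings. Ccl24, Ccl17 and Ccr4 stay below 0 in every setting shown, Ccl22 is above 0 only with normexp on all spots (0.33), and Ccr8 lies on both sides of 0.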

How the data were processed

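RNA of BALF cells was labelled with Cy3 and hybridized to 4 one-color arrays, 2 per genotype. The authors deposited the intensity of every spot as Agilent Feature Extraction wrote it (version 11.0.1.1 per the file headers, 10.7.3.1 in the submitters' processing notes), with background already subtracted. The authors deposited normalized log2 values as well, and these served as an alternative. After a constant per array was removed, it matched log2 of the processed signal over the 75th percentile, relative to the wild-type mean, within 0.01 for 100% of 39359 probes.

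Here each processed signal was scaled to the 75th percentile of its array's non-control spots, raised to 0.01 where lower, and put on the log2 scale. Outlier-flagged spots (115 to 273 an array) were dropped, and 0 were saturated. The 27158 probes with values on every array that stood well above background in both replicates of a genotype were fitted with limma 3.58.1 in R 4.3.3 and adjusted by Benjamini-Hochberg; the script was tested on simulated data. Symbols came from accessions in a RefSeq table of GRCm38.p6 (69.6% of probes); the array design uses another build, mm9. A gene with several probes is represented by its brightest. The number of arrays limits the precision, and although the methods describe the RNA samples of a genotype as independent, whether they came from separate mice or pools is not given, so p-values measure only the spread between these samples.

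The members, lists and markers were chosen with earlier results of these data known. The text names the members, S1pr2, a part of the listed pathway and marker genes, and the 3 nearest patterns of each member. It also names neighbours of members on the chromosome, chosen after their values were seen. The mean signal planned for normexp was replaced by the median signal. Its fit on non-control spots was added after the data were seen. Normalization, floor, filter, flags, variance model, the methods' t-test, the replicate block and each array left out were tried as alternatives.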

Additional observations from a re-analysis of the deposited data

How the results depend on the processing

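limma made 0 calls at an adjusted p under 0.05 in all settings tried except normexp fitted on the non-control spots, which called 2 probes (S1pr2 and Fbp1), and it called 0 genes of the 4 pathway lists in every setting. Past 2-fold and under an unadjusted p of 0.05 lay 172 lower and 29 higher probes, which became 79 and 14 when the percentile was taken over detected probes, and 57 and 15 in the methods' t-test. The lower ones became 37 in normexp on all spots and 95 without a filter, the higher ones 78 in the authors' log2 table and 77 without a floor. Leaving out 1 array gave 85 (without S1pr2-/- replicate 2) to 343 (without wild-type replicate 2) lower, with 325 without wild-type replicate 1, and 34 to 105 higher, the latter without S1pr2-/- replicate 1, with 82 without S1pr2-/- replicate 2. The cause was not tested.

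Under normexp on all spots the fitted background of knockout-labelled replicate 1 was -418 intensity units beside 4.72 to 8.15 on the other arrays. Ccl24, Ccl22, Ccr4 and Ccr8 moved furthest there among the settings that kept the 4 arrays. In this setting the log2 difference was -5.83 for Ccl24, 0.33 for Ccl22, -0.75 for Ccr4 and 0.66 for Ccr8, 2 member genes in place of 4 were lower on both knockout-labelled arrays, and the median of all probes moved by 0.19. The list medians were then 0.17 for the chemokine axis and 0.24 for the type 2 inducers. Under quantile normalization 3 member genes were lower on both knockout-labelled arrays. With normexp on the non-control spots, a setting chosen after seeing the data, Ccl24 was at -6.82, the inducer median at -0.43, and 4 member genes were lower. Ccl24 was at -7.20 with the percentile over detected probes. Ccl17 kept its sign and moved by less than the spread between arrays in all 11 settings that kept the 4 arrays. With 1 array left out the differences ran from -9.02 to -7.38 for Ccl24, from -1.45 to -0.89 for Ccl17, from -1.12 to -0.30 for Ccl22, from -2.25 to -0.96 for Ccr4 and from -0.23 to 0.20 for Ccr8, and 4 to 5 member genes were lower on every knockout-labelled array.

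The inducer median was -0.51 under quantile normalization, -0.33 with no filter and -0.60 to -0.37 with 1 array left out. The other list medians ran from -0.52 to -0.12 (chemokine axis), -0.18 to 0.01 (IL-4 and IL-13 signalling) and -1.10 to -0.46 (induced macrophage genes) with 1 array left out.

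Nothing in the labels says that equal replicate numbers mark a pairing, and the deviations correlated at 0.187, which with 2 pairs cannot settle it. The replicate block gave 0 calls, with 152 lower and 34 higher probes past 2-fold under an unadjusted p of 0.05, and changed no call. The dim signals of Ccl22, Ccr8 and Ccl11 limit what these arrays can show of them.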
